A study of Mus musculus with 18 samples.

Results

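The 33 genes described here encode enzymes of cholesterol and fatty acid synthesis and the proteins that switch them on when sterols are short. They were picked by gene symbol from a table of 20655 genes, in which reads had been counted over coding sequences. The choice was made with earlier results of these data known. The set holds 18 sterol synthesis enzymes, of which 7 lead from acetyl-CoA to farnesyl diphosphate (Acat2, Hmgcs1, Mvk, Pmvk, Mvd, Idi1, Fdps) and 11 lead from squalene synthase to cholesterol (Fdft1, Sqle, Lss, Cyp51, Tm7sf2, Msmo1, Nsdhl, Hsd17b7, Ebp, Sc5d, Dhcr7). It also holds 5 genes of SREBP control (Srebf1, Srebf2, Scap, Insig1, Insig2), 9 genes of fatty acid synthesis (Fasn, Acaca, Acly, Scd1, Scd2, Elovl6, Elovl5, Fads1, Fads2) and Stard4, a sterol carrier. All 33 passed the filter on low counts, and the lowest count of any of them in any library was 10 reads.

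The samples were epidermis of mouse embryos at E18.5 (days of gestation), labelled as basal cells. Ribosome footprints (the coding stretches covered by ribosomes) and RNA were each sequenced in 3 libraries per group, 18 libraries in all. In HrasG12V shEif2b5 and HrasG12V shScram the strain was FR-HrasG12V, with an activated form of the GTPase Hras, and the skin had received an shRNA against Eif2b5, a subunit of the translation initiation factor eIF2B, or a scrambled shRNA. In WT shScram the strain was Gt(ROSA)26Sortm4(ACTB-tdTomato,-EGFP), substrain designation Luo/J, with the scrambled shRNA, so strain and Hras genotype cannot be told apart. The shRNA was injected in utero at E9.5 in all 3 groups, and cycloheximide, which arrests ribosomes, was present during extraction. No WT group with shEif2b5 was analysed here, the labels used here do not say what drives the HrasG12V allele, and 1 WT shScram footprint library has the genotype label Rosa26. The labels do not tie the 3 libraries of one group to separate animals, so p-values measure the spread between these libraries, which may be technical. In bulk samples fewer cells of a type and less RNA per cell cannot be told apart.

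As background, cells build cholesterol from acetyl-CoA through mevalonate, isoprenoid diphosphates, squalene and lanosterol, and fatty acids from the same acetyl-CoA through malonyl-CoA. The transcription factors encoded by Srebf1 and Srebf2 are made as membrane proteins of the endoplasmic reticulum. Scap escorts them to the Golgi, where proteases free their active part, and Insig1 and Insig2 hold Scap back when sterols are plentiful. Srebf2 acts chiefly on sterol synthesis and a form of Srebf1 chiefly on fatty acid synthesis. In late fetal epidermis both lipid classes feed the water barrier of the skin.

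RefSeq promoter windows (build GRCm38.p6, 250 bases before to 50 after the annotated start) were at hand for 26 of the 33 genes. Only the 250 bases before the start were searched, in the window with the outermost start where a gene had several. The motif CCAAT, the box bound by the factor NF-Y that is known to work beside SREBP, was searched on both strands. It was found in 13 of 15 sterol synthesis promoters (86.7%) and 4 of 5 SREBP control promoters (80.0%). Of the fatty acid synthesis promoters 2 of 6 held it (33.3%), and 9331 of 27025 RefSeq promoters did (34.5%). The motif TCACNCCAC, a form of the sterol regulatory element that SREBP binds, was searched on both strands and found in Hmgcs1 alone among the 26 (3.85%), against 279 of all promoters (1.03%). These matches describe letters and were not tested as binding sites.

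Stretches from 7 of these promoters are shown, those of 4 sterol enzymes, 2 genes of SREBP control and Fasn. The spacing of boxes can be compared between the sterol enzymes and Fasn only, since the stretches of Insig1 and Srebf2 do not hold several boxes. Each stretch runs 5′ to 3′ on the strand of its gene and lies upstream of the GENCODE gene model. Capitals mark CCAAT or its reverse complement ATTGG and, in Hmgcs1, also TCACCCCAC. In Fasn a CCAAT and an ATTGG overlap. A further ATTGG of Hmgcs1, 237 to 233 bases before the start, lies outside the stretch shown. The positions are chr13:119690126-119690325 on the plus strand for Hmgcs1 (HMG-CoA synthase), chr5:114444081-114444268 on the plus strand for Mvk (mevalonate kinase), chrX:72918397-72918520 on the plus strand for Nsdhl (a sterol dehydrogenase), chrX:8193548-8193697 on the minus strand for Ebp (a sterol isomerase). The other positions are chr5:28071181-28071215 on the plus strand for Insig1 (which holds Scap back), chr15:82147119-82147153 on the plus strand for Srebf2 (the sterol gene activator), chr11:120824587-120824652 on the minus strand for Fasn (fatty acid synthase).
Hmgcs1: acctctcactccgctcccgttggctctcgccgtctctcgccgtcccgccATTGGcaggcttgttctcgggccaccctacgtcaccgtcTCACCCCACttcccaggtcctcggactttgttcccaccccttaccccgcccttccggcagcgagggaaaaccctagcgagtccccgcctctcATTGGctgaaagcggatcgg
Mvk: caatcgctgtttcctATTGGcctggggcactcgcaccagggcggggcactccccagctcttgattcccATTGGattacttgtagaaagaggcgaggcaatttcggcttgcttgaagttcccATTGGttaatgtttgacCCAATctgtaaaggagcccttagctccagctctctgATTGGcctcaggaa
Nsdhl: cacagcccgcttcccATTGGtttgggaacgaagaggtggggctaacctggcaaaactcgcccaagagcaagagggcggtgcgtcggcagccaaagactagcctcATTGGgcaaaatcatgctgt
Ebp: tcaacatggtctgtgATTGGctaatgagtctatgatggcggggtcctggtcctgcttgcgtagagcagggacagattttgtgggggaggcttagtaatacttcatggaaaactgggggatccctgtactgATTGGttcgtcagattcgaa
Insig1: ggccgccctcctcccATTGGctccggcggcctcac
Srebf2: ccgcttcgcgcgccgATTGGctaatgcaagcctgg
Fasn: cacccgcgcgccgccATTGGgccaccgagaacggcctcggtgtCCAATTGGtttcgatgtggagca

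Totals ran from 3319175 to 4933298 counts per footprint library and from 1771365 to 5505386 per RNA library, with HrasG12V shScram library 2 the shallowest RNA library. RNA calls over all genes depended on HrasG12V shScram libraries 1 and 3: against WT shScram there were 854 with every library and 47 without those 2. Eif2b5 RNA was 134, 128 and 143 CPM in HrasG12V shEif2b5, 127, 388 and 145 in HrasG12V shScram, and 158, 179 and 159 in WT shScram, where CPM is the count scaled to library size by the TMM method. Eif2b5 overlapped between HrasG12V shEif2b5 and HrasG12V shScram and lay under every WT shScram library in HrasG12V shEif2b5, and no comparison called it (log2 −0.68, SE 0.37, adjusted p = 0.257 for HrasG12V shEif2b5 against HrasG12V shScram). CPM was summed over 5 suprabasal keratinocyte genes (Krt1, Krt10, Krtdap, Dsg1a, Dsc1) and 7 basal genes (Krt5, Krt14, Krt15, Itga6, Itgb4, Col17a1, Trp63). Against the basal cell label, the suprabasal sum exceeded the basal sum in all 18 libraries. Krt1 and Krt10 made up most of it, averaging 42100 and 33600 CPM in WT shScram RNA. Krtdap, Dsg1a and Dsc1 averaged 214, 376 and 866 CPM there, under Krt5 at 7350. Sums of different genes do not measure shares of cells.

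Sterol synthesis RNA was higher in HrasG12V shScram than in WT shScram. Among the 18 sterol enzymes 10 rose, 0 fell and 8 did not pass the test, with a median log2 fold change of 0.57. Of the 9 fatty acid genes 1 rose (median 0.31) and of the 5 SREBP control genes 1 rose (median −0.11), while the median over all 11096 genes tested was 0.01. Counted over the 33 genes 12 rose and 0 fell, where 7.7% of all genes tested were called and 4.65% were called higher and 3.05% lower (edgeR quasi-likelihood test, Benjamini-Hochberg adjusted p under 0.05 over all genes). The 3 libraries of one group did not overlap those of the other for 19 of the 33 genes, all 12 called ones included, against 26.1% of all genes.

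Idi1, the isomerase that balances the isoprene building blocks, had the largest RNA difference of the 33 genes between HrasG12V shScram and WT shScram. Its RNA was 34.8, 41.5 and 30.1 CPM in HrasG12V shEif2b5, 101, 57.2 and 86.3 in HrasG12V shScram, and 26.7, 29.1 and 44.3 in WT shScram. All 3 HrasG12V shScram libraries lay above the other 6, and library 2 was the lowest of them. Idi1 rose 2.42-fold in HrasG12V shScram against WT shScram (log2 1.27, SE 0.22, adjusted p = 0.00351), and of the 12 genes it alone stayed called whichever single library was left out. Of the 28-base windows of its transcripts 19.1% also occur in other transcripts, chiefly pseudogenes. Such windows cover whole transcripts, untranslated parts included, so the share does not measure how uncertain a coding count is. Idi1 lies at chr13:8885501-8892451 on the plus strand (GENCODE, GRCm38).

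Elsewhere on the way to farnesyl diphosphate the differences were smaller. Hmgcs1, which condenses acetyl-CoA units into HMG-CoA, had RNA levels of 245, 222 and 173 CPM in HrasG12V shEif2b5, 352, 246 and 344 in HrasG12V shScram, and 207, 183 and 266 in WT shScram. Library 2 of HrasG12V shScram fell inside the WT range, and the gene was not called there (log2 0.52, SE 0.18, adjusted p = 0.0792). Fdps, which joins isoprene units into farnesyl diphosphate, had RNA levels of 295, 240 and 251 CPM in HrasG12V shEif2b5, 366, 292 and 286 in HrasG12V shScram, and 222, 218 and 236 in WT shScram. The WT shScram libraries lay under all 6 HrasG12V libraries, and Fdps rose in HrasG12V shScram against WT shScram (log2 0.48, SE 0.14, adjusted p = 0.0484). Of the 28-base transcript windows of Fdps 28.2% occur in other transcripts, which does not measure how uncertain its coding count is. The other 4 members of this stretch were not called, with log2 differences of 0.64 for the thiolase Acat2, −0.31 for mevalonate kinase (Mvk), 0.11 for phosphomevalonate kinase (Pmvk) and 0.38 for the decarboxylase Mvd. Acat2 shares 44.6% of its windows with other transcripts, chiefly Acat3.

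From squalene to cholesterol 8 of 11 enzymes rose, all but Sqle, Lss and Hsd17b7. Fdft1, squalene synthase, had RNA levels of 94.01, 76.2 and 82.2 CPM in HrasG12V shEif2b5, 147, 108 and 124 in HrasG12V shScram, and 84.98, 76.9 and 99.6 in WT shScram. Cyp51, the lanosterol demethylase, had RNA levels of 73.7, 81.6 and 61.1 CPM in HrasG12V shEif2b5, 144, 113 and 124 in HrasG12V shScram, and 52.6, 83.2 and 74.5 in WT shScram. In both genes the HrasG12V shScram libraries were higher than the other 6. Fdft1 (log2 0.54, SE 0.16, adjusted p = 0.0453) and Cyp51 (log2 0.86, SE 0.17, adjusted p = 0.009) rose in HrasG12V shScram against WT shScram. Of the 28-base windows of Fdft1 15.3% occur in a pseudogene.

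The steps after Cyp51 were also highest in HrasG12V shScram. Tm7sf2, a sterol reductase, had RNA levels of 14.1, 13.5 and 13.6 CPM in HrasG12V shEif2b5, 20.1, 19.4 and 22.4 in HrasG12V shScram, and 10.5, 13.99 and 13.4 in WT shScram. Msmo1, a methylsterol oxidase, had RNA levels of 52.2, 53.2 and 31.0 CPM in HrasG12V shEif2b5, 97.4, 66.1 and 96.05 in HrasG12V shScram, and 47.8, 40.02 and 55.5 in WT shScram. Nsdhl, which acts after Msmo1, had RNA levels of 15.9, 20.6 and 15.03 CPM in HrasG12V shEif2b5, 29.02, 24.98 and 28.7 in HrasG12V shScram, and 16.2, 16.7 and 17.4 in WT shScram. Each had its 3 HrasG12V shScram libraries above the other 6. Against WT shScram they rose by log2 0.70 for Tm7sf2 (SE 0.21, adjusted p = 0.0468), 0.86 for Msmo1 (SE 0.20, adjusted p = 0.0194) and 0.72 for Nsdhl (SE 0.20, adjusted p = 0.034). Tm7sf2 shares 13.5% of its 28-base windows with other transcripts, chiefly the overlapping gene Vps51.

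The last enzymes of the pathway rose as well. Ebp, the sterol isomerase, had RNA levels of 15.6, 16.3 and 9.86 CPM in HrasG12V shEif2b5, 32.1, 24.98 and 35.8 in HrasG12V shScram, and 16.6, 18.3 and 15.9 in WT shScram. Sc5d, the lathosterol desaturase, had RNA levels of 15.9, 16.7 and 8.93 CPM in HrasG12V shEif2b5, 44.9, 33.9 and 36.05 in HrasG12V shScram, and 21.9, 21.4 and 18.6 in WT shScram. Dhcr7, a sterol reductase whose product can be cholesterol, had RNA levels of 57.7, 54.97 and 53.5 CPM in HrasG12V shEif2b5, 98.9, 77.7 and 87.4 in HrasG12V shScram, and 63.5, 55.6 and 55.5 in WT shScram. HrasG12V shScram again stood above both other groups, and Sc5d was lowest in HrasG12V shEif2b5, under every WT shScram library. In HrasG12V shScram against WT shScram the log2 rise was 0.90 for Ebp (SE 0.21, adjusted p = 0.0196), 0.92 for Sc5d (SE 0.21, adjusted p = 0.0176) and 0.61 for Dhcr7 (SE 0.15, adjusted p = 0.0218). The 3 enzymes without a call had log2 differences of 0.31 (Sqle, squalene epoxidase), 0.43 (Lss, lanosterol synthase) and 0.05 (Hsd17b7, a ketosterol reductase).

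**Figure D1:**
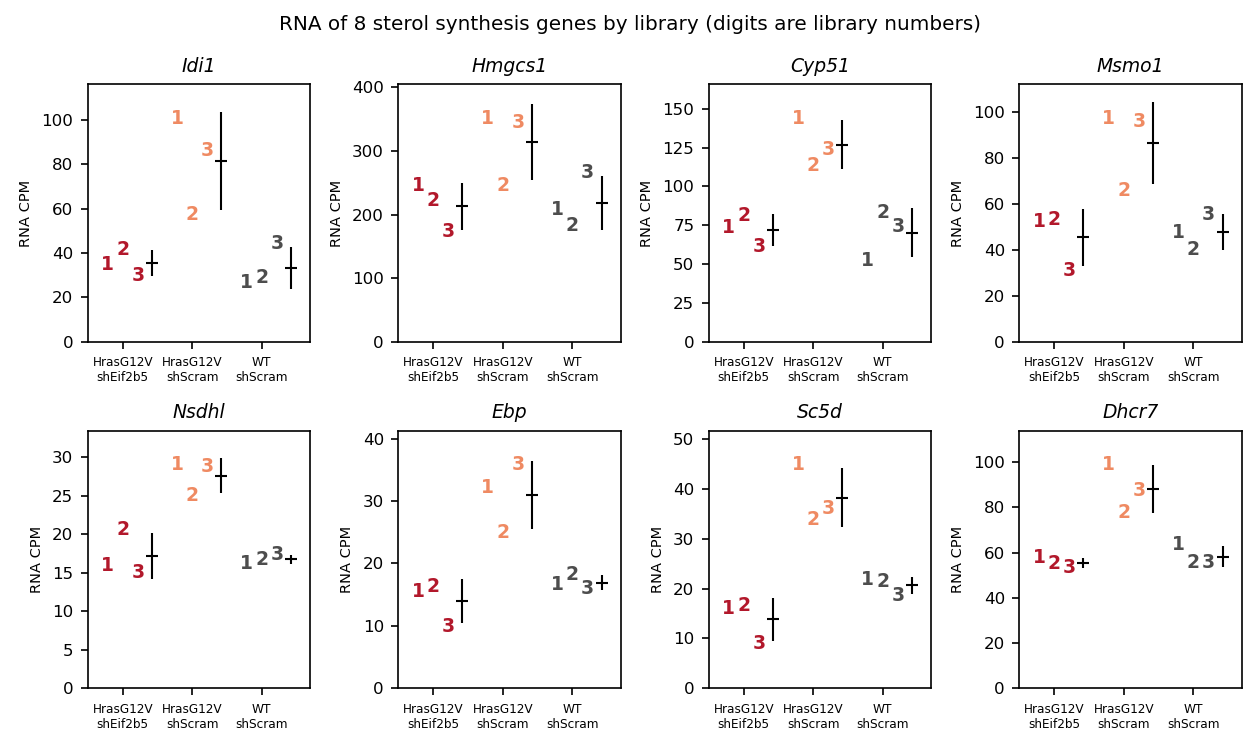
RNA level (CPM, linear axes from 0) of 8 sterol synthesis genes in each library, with digits giving the library number and bars the mean ± SD of 3 libraries. For 7 of the 8, all but Hmgcs1, the HrasG12V shScram libraries lie above both other groups, and library 2 is the lowest HrasG12V shScram library in all 8.

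Among the genes of SREBP control Insig1, itself a known target of SREBP, was the one called in RNA. It had 27.8, 31.6 and 32.9 CPM in HrasG12V shEif2b5, 39.9, 41.1 and 33.9 in HrasG12V shScram, and 29.1, 22.9 and 23.3 in WT shScram. The HrasG12V shScram libraries lay above the other 6, and Insig1 rose against WT shScram (log2 0.61, SE 0.18, adjusted p = 0.0459). Insig2, a relative of Insig1, had RNA levels of 19.2, 14.5 and 16.4 CPM in HrasG12V shEif2b5, 25.01, 21.1 and 30.0 in HrasG12V shScram, and 19.4, 20.6 and 17.0 in WT shScram. Its HrasG12V shScram libraries were also the highest, without a call (log2 0.45, SE 0.20, adjusted p = 0.176).

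The SREBP genes themselves had the opposite sign. Srebf1 had RNA levels of 257, 182 and 210 CPM in HrasG12V shEif2b5, 186, 220 and 195 in HrasG12V shScram, and 230, 233 and 252 in WT shScram. Srebf2 had RNA levels of 571, 433 and 534 CPM in HrasG12V shEif2b5, 425, 454 and 379 in HrasG12V shScram, and 484, 497 and 483 in WT shScram. For both genes every HrasG12V shScram library lay under every WT shScram library, but neither difference passed the test (log2 −0.26, SE 0.15, adjusted p = 0.29 for Srebf1, and log2 −0.22, SE 0.15, adjusted p = 0.358 for Srebf2). Scap had RNA levels of 278, 240 and 294 CPM in HrasG12V shEif2b5, 238, 209 and 240 in HrasG12V shScram, and 255, 251 and 238 in WT shScram. Its groups overlapped (log2 −0.11, SE 0.14, adjusted p = 0.64). Counts do not tell the membrane-bound precursor from the released factor, so SREBP activity was not measured.

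In the fatty acid branch 1 gene was called in RNA. Elovl5, an elongase of polyunsaturated fatty acids, had 18.1, 12.4 and 10.3 CPM in HrasG12V shEif2b5, 20.6, 26.6 and 25.9 in HrasG12V shScram, and 14.2, 15.9 and 11.2 in WT shScram. HrasG12V shScram was above both other groups in every library. Elovl5 rose in HrasG12V shScram against WT shScram (log2 0.84, SE 0.24, adjusted p = 0.0407) and fell in HrasG12V shEif2b5 against HrasG12V shScram (log2 −0.81, SE 0.24, adjusted p = 0.0374).

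Fasn, which builds palmitate from malonyl-CoA, had RNA levels of 620, 547 and 576 CPM in HrasG12V shEif2b5, 559, 507 and 576 in HrasG12V shScram, and 598, 580 and 630 in WT shScram. Acaca, the carboxylase that supplies malonyl-CoA, had RNA levels of 190, 178 and 156 CPM in HrasG12V shEif2b5, 235, 175 and 214 in HrasG12V shScram, and 173, 171 and 200 in WT shScram. Neither was called in any RNA comparison, with log2 differences between −0.25 and 0.20. Scd1, a stearoyl-CoA desaturase, had RNA levels of 53.3, 39.4 and 28.6 CPM in HrasG12V shEif2b5, 67.4, 41.6 and 53.5 in HrasG12V shScram, and 33.2, 32.2 and 42.7 in WT shScram. Scd2, its close relative, had RNA levels of 431, 350 and 350 CPM in HrasG12V shEif2b5, 448, 326 and 371 in HrasG12V shScram, and 286, 350 and 335 in WT shScram. Both desaturases overlapped between all groups, and 8.96% of the 28-base windows of Scd1 and 7.56% of those of Scd2 occur in other transcripts, chiefly of the same family.

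The other members of the branch were not called in RNA. Their log2 differences in HrasG12V shScram against WT shScram were 0.15 for the citrate lyase Acly, 0.31 for the elongase Elovl6, 0.59 for the desaturase Fads1 and 0.81 for the desaturase Fads2. Fads2 had the fewest reads of the 33, with 3.88 to 12.2 RNA CPM. Stard4, the sterol carrier, differed by log2 0.12 in the same comparison.

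With shEif2b5 in HrasG12V skin, sterol synthesis RNA was lower than with shScram. Of the 18 sterol enzymes 9 fell and 0 rose, with a median log2 fold change of −0.58. Of the 9 fatty acid genes 1 fell, Elovl5 (median −0.25), and none of the 5 SREBP control genes was called by edgeR (median 0.11). An unadjusted p under 0.05 was found for 1 of these 5 and for 3387 of all 11096 genes. Over the 33 genes 10 fell and 0 rose, where 13.0% of all genes tested were called and 7.79% were called lower and 5.23% higher. The groups did not overlap for 13 of the 33 genes, against 28.6% of all genes. The HrasG12V shScram libraries also entered the comparison with WT shScram, so the opposite signs are no separate measurement.

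Sc5d was 2.74-fold lower in HrasG12V shEif2b5 than in HrasG12V shScram (log2 −1.46, SE 0.23, adjusted p = 0.00272), the largest difference of the 33 genes. Idi1 was 2.32-fold lower (log2 −1.21, SE 0.22, adjusted p = 0.00447) and Ebp 2.23-fold lower (log2 −1.16, SE 0.23, adjusted p = 0.00578). These 3 stayed called whichever single library was left out. The other sterol enzymes that fell had log2 fold changes of −0.93 for Msmo1, −0.82 for Cyp51, −0.69 for Nsdhl, −0.67 for Dhcr7, −0.59 for Fdft1 and −0.56 for Hmgcs1, with SEs of 0.15 to 0.21 and adjusted p of 0.0094 to 0.0484. Mvk, mevalonate kinase, had the opposite sign without a call (log2 0.43, SE 0.16, adjusted p = 0.0864).

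Set against WT shScram, HrasG12V shEif2b5 had no called member in RNA. By edgeR none of the 33 genes was called, where 0.324% of all genes tested were called. An unadjusted p under 0.05 was found for 2 of the 33 (Sc5d at log2 −0.54 and Fads1 at 0.61) and for 812 of all 11096 genes. DESeq2 and limma voom also called none of the 33. Groups did not overlap for 4 of the 33 genes, against 16.0% of all genes. The median log2 difference was 0.04 for sterol synthesis and 0.03 for fatty acid synthesis. The 95% interval of the log2 difference ran from −0.43 to 0.55 for Idi1 and from −0.42 to 0.34 for Hmgcs1.

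The RNA differences ran with GC content over all genes. In HrasG12V shScram against WT shScram the median log2 difference was 0.28 for 2513 genes with coding GC under 48%, 0.05 for 3467 genes of 48% to 54%, and −0.18 for 5062 genes of 54% or more. The sterol enzymes in those classes, in the same order, had medians of 0.86 (5 genes, 4 called), 0.54 (7 genes, 4 called) and 0.41 (6 genes, 2 called). Median coding GC was 51.4% for the sterol enzymes, 54.6% for the fatty acid genes, 58.7% for SREBP control and 53.2% for all genes tested. With offsets for GC and length in each library, 7 of the 33 genes were called higher, 6 of the 12 (Cyp51, Dhcr7, Ebp, Idi1, Insig1, Tm7sf2) and also Lss, and the sterol median was 0.54 with 16 of 18 positive. In HrasG12V shEif2b5 against HrasG12V shScram the medians by GC class were −0.38, −0.09 and 0.21 for all genes and −0.93, −0.53 and −0.16 for the sterol enzymes, and with the offsets 5 genes were called lower, 4 of the 10 (Dhcr7, Ebp, Idi1, Sc5d) and also Tm7sf2, with a sterol median of −0.45.

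Both RNA comparisons also rested on HrasG12V shScram RNA libraries 1 and 3. Without both, no member was called in either, with 1 HrasG12V shScram library left that was assumed to vary like the others. The sterol median was then 0.35 in HrasG12V shScram against WT shScram and −0.28 in HrasG12V shEif2b5 against HrasG12V shScram, and the fatty acid medians were 0.01 and 0.10. Leaving out 1 library at a time gave 1 called member in HrasG12V shScram against WT shScram when library 1 of HrasG12V shScram or of WT shScram was left out, and 17 without HrasG12V shScram library 2. In HrasG12V shEif2b5 against HrasG12V shScram it gave 3 without HrasG12V shEif2b5 library 3 or HrasG12V shScram library 1, and 14 without HrasG12V shScram library 2. RNA of the 7 basal markers summed to 13320 to 15460 CPM in HrasG12V shEif2b5, 8569 to 11860 CPM in HrasG12V shScram and 12730 to 17140 CPM in WT shScram. The sum was lowest in the group whose sterol RNA was highest, as were the means of 5 of the 7 genes. The other 2 were highest in HrasG12V shScram: Trp63 averaged 319 CPM in HrasG12V shEif2b5, 392 in HrasG12V shScram and 346 in WT shScram, and Itga6 averaged 352 CPM in HrasG12V shEif2b5, 393 in HrasG12V shScram and 386 in WT shScram. Suprabasal RNA summed to 45070 to 58370 CPM in HrasG12V shEif2b5, 33530 to 61720 in HrasG12V shScram and 64210 to 96310 in WT shScram. Of these 5 genes the means of 2 were lowest in HrasG12V shScram and that of 1 highest. RNA of 4 granular layer genes (Lor, Ivl, Flg2, Casp14) summed to 2726 to 4463, 1457 to 5524 and 1944 to 5980 CPM in the same groups. RNA of 5 melanocyte markers (Tyr, Tyrp1, Dct, Pmel, Mlana) summed to 549.6, 506.5 and 426.5 CPM in HrasG12V shEif2b5, 692.3, 554.6 and 599.4 in HrasG12V shScram, and 368.7, 356.3 and 529.8 in WT shScram. All 3 HrasG12V shScram libraries lay above the other 6, the mean of each of the 5 genes was highest in HrasG12V shScram, and none was at 0 in any library. RNA of 6 dermal fibroblast markers (Col1a1, Col1a2, Col3a1, Dcn, Lum, Pdgfra) summed to 2120, 931.7 and 358.0 CPM in WT shScram, the widest spread of the groups. The sums were 468.6, 488.7 and 564.6 CPM in HrasG12V shEif2b5, and 691.9, 518.0 and 1055 CPM in HrasG12V shScram. The part of these marker differences in the sterol result was not tested.

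**Figure D2:**
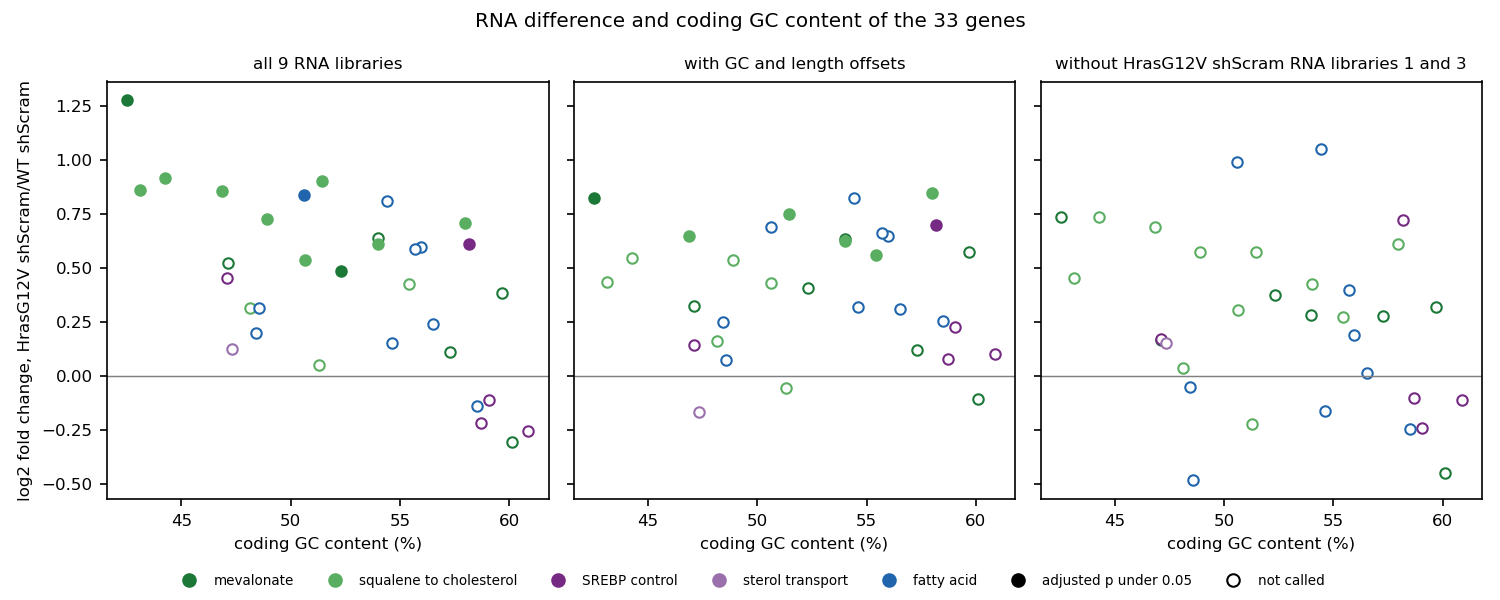
RNA log2 fold change of HrasG12V shScram against WT shScram (y axis) by coding GC content in percent (x axis) for the 33 genes, with filled points called at an adjusted p under 0.05. With all 9 libraries 12 points are filled, with GC and length offsets 7, and without HrasG12V shScram RNA libraries 1 and 3 none.

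Between HrasG12V shScram and WT shScram, ribosome footprints of the sterol genes differed less than their RNA. In HrasG12V shScram against WT shScram edgeR called none of the 33, where 1.7% of all genes were called (1.23% higher and 0.472% lower). An unadjusted p under 0.05 was found for 10 of the 33 and for 1632 of all 11448 genes, and DESeq2 called 1 member. The groups did not overlap for 10 of the 33, against 20.3% of all genes. Of the 18 sterol enzymes 17 had a positive difference (median log2 0.27), and of the 9 fatty acid genes 4 had one (median −0.05), where the median over all 11448 genes was −0.01. Footprint CPM summed over the 18 sterol enzymes was 3055, 3090 and 3172 in HrasG12V shEif2b5, 3607, 3148 and 2963 in HrasG12V shScram, and 2770, 2669 and 2515 in WT shScram. On this sum every library of both HrasG12V groups lay above WT shScram. Hmgcs1 footprints were 780, 750 and 715 CPM in HrasG12V shEif2b5, 823, 721 and 719 in HrasG12V shScram, and 584, 622 and 645 in WT shScram. All 6 HrasG12V libraries were above WT shScram, without a call (log2 0.29, SE 0.11, adjusted p = 0.229 in HrasG12V shScram against WT shScram).

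Idi1 and Sc5d, which rose in RNA, had footprints that overlapped between all groups. Idi1 footprints were 274, 218 and 271 CPM in HrasG12V shEif2b5, 357, 293 and 251 in HrasG12V shScram, and 342, 228 and 228 in WT shScram. Sc5d footprints were 73.4, 89.9 and 90.8 CPM in HrasG12V shEif2b5, 110, 94.2 and 78.9 in HrasG12V shScram, and 110, 94.8 and 64.4 in WT shScram. In HrasG12V shScram against WT shScram the footprint difference was log2 0.18 for Idi1 (95% interval −0.18 to 0.53) and 0.07 for Sc5d (−0.30 to 0.44). Pmvk, phosphomevalonate kinase, had the largest sterol difference in footprints, with 57.3, 80.1 and 69.6 CPM in HrasG12V shEif2b5, 90.3, 71.8 and 70.1 in HrasG12V shScram, and 34.6, 48.1 and 61.9 in WT shScram. Its HrasG12V shScram libraries were above all WT shScram ones, without a call (log2 0.68, SE 0.19, adjusted p = 0.0826).

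In footprints of HrasG12V shEif2b5 against HrasG12V shScram, edgeR called no gene of the table (0.0%), 519 genes had an unadjusted p under 0.05, Fasn and Acaca among them, and DESeq2 called 0 of the 33. The groups did not overlap for 4 of the 33 genes, against 11.1% of all genes. The difference was positive for 9 of 9 fatty acid genes (median log2 0.21) and for 6 of 18 sterol enzymes (median −0.08), with a median over all genes of 0.0008.

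Acaca was the 1 member called in footprints, in HrasG12V shEif2b5 against WT shScram, where 0.97% of all genes tested were called and 0.76% were called higher. Its footprints were 124, 160 and 183 CPM in HrasG12V shEif2b5, 122, 112 and 135 in HrasG12V shScram, and 99.0, 104 and 92.9 in WT shScram. All HrasG12V libraries were above WT shScram, and Acaca rose 1.58-fold in HrasG12V shEif2b5 against WT shScram (log2 0.66, SE 0.14, adjusted p = 0.0284). The call held in 3 of 9 fits that left out 1 library, was lost without library 2 or 3 of HrasG12V shEif2b5, 1 or 2 of HrasG12V shScram, or 1 or 2 of WT shScram (highest adjusted p = 0.164), and was lost with GC and length offsets (adjusted p = 0.0548). Of the 28-base windows of Acaca 33.9% occur in other transcripts, chiefly the pseudogene Gm5182. Acaca lies at chr11:84129672-84401651 on the plus strand. Groups did not overlap for 7 of the 33 genes in this comparison, against 16.1% of all genes. The sterol footprint median was log2 0.28 here, with 16 of 18 positive, where the sterol RNA median was 0.04, with 12 of 18 positive. In footprints 8 sterol enzymes and 1648 of all 11448 genes had an unadjusted p under 0.05. The fatty acid median was 0.33 in footprints (6 of 9 positive) and 0.03 in RNA (5 of 9 positive).

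Fasn footprints were 276, 459 and 559 CPM in HrasG12V shEif2b5, 228, 273 and 283 in HrasG12V shScram, and 213, 281 and 226 in WT shScram. Libraries 2 and 3 of HrasG12V shEif2b5 stood above all others, while library 1 lay within the range of the other groups. The difference was not called against HrasG12V shScram (log2 0.72, SE 0.22, adjusted p = 0.994) or against WT shScram (log2 0.84, SE 0.22, adjusted p = 0.113). Acly, which makes cytosolic acetyl-CoA from citrate, had footprints of 449, 695 and 676 CPM in HrasG12V shEif2b5, 490, 451 and 508 in HrasG12V shScram, and 317, 512 and 393 in WT shScram. Here too libraries 2 and 3 of HrasG12V shEif2b5 were the highest, without a call (log2 0.57, SE 0.18, adjusted p = 0.154 against WT shScram). Without HrasG12V shEif2b5 footprint library 1, 4 members were called against WT shScram (Acaca, Acly, Fasn and Mvk), and Fasn was called against HrasG12V shScram.

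The footprint sum of suprabasal keratinocyte markers was high in the same libraries. Footprints of the 5 genes summed to 22500, 68730 and 67760 CPM in HrasG12V shEif2b5, 37550, 31300 and 30450 in HrasG12V shScram, and 26600, 42540 and 21460 in WT shScram. Krt1 and Krt10 made up most of the sum, averaging 32600 and 16600 CPM in HrasG12V shEif2b5 and 19800 and 9410 in HrasG12V shScram. Dsc1 averaged 1400 CPM in HrasG12V shEif2b5 and 1170 in HrasG12V shScram, and Dsg1a 311 and 286. Krtdap went the other way, with 2130 CPM in HrasG12V shEif2b5 and 2400 in HrasG12V shScram. The part of these markers in the Fasn, Acaca and Acly values was not tested. Footprints of 8 sebocyte markers summed to 81.9 to 111 CPM in HrasG12V shEif2b5, 66.4 to 106 CPM in HrasG12V shScram and 72.3 to 116 CPM in WT shScram. Those of 7 adipocyte markers summed to 24.9 to 30.7 CPM in HrasG12V shEif2b5, 26.2 to 73.3 CPM in HrasG12V shScram and 24.5 to 37.4 CPM in WT shScram, and Adipoq, Plin1, Cidec and Car3 were at 0 in 4, 7, 6 and 1 of the 9 footprint libraries. Sebocyte marker RNA summed to 47.92, 22.76 and 58.06 CPM in HrasG12V shScram. It was 27.02, 43.62 and 22.55 CPM in HrasG12V shEif2b5, and 26.71, 25.26 and 36.17 in WT shScram. The means of 5 of the 8 genes were highest in HrasG12V shScram and those of 2 lowest. Adipocyte marker RNA was 24.44, 11.1 and 9.713 CPM in HrasG12V shScram, and at most 10.64 in HrasG12V shEif2b5 and 11.74 in WT shScram. The part of these RNA sums in the sterol result was not tested.

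Scd2 footprints were 439, 479 and 512 CPM in HrasG12V shEif2b5, 521, 429 and 412 in HrasG12V shScram, and 340, 352 and 381 in WT shScram. Scd1 footprints were 108, 74.9 and 72.3 CPM in HrasG12V shEif2b5, 89.2, 64.7 and 96.1 in HrasG12V shScram, and 91.2, 64.2 and 116 in WT shScram. Scd2 was above WT shScram in all 6 HrasG12V libraries without a call (log2 0.41, SE 0.12, adjusted p = 0.108 in HrasG12V shEif2b5 against WT shScram), and Scd1 overlapped between all groups (log2 −0.09, SE 0.23, adjusted p = 0.917).

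No gene of SREBP control was called by edgeR in footprints, in any of the 3 comparisons, and 0 had an unadjusted p under 0.05. Srebf1 footprints were 111, 104 and 77.4 CPM in HrasG12V shEif2b5, 85.8, 90.7 and 92.5 in HrasG12V shScram, and 91.2, 118 and 98.2 in WT shScram. Srebf2 footprints were 169, 161 and 180 CPM in HrasG12V shEif2b5, 150, 152 and 161 in HrasG12V shScram, and 165, 189 and 162 in WT shScram. Srebf2 lay under every WT shScram library in HrasG12V shScram (log2 −0.16, SE 0.11, adjusted p = 0.578), while Srebf1 overlapped between HrasG12V shScram and WT shScram. Scap footprints were 42.6, 37.5 and 36.5 CPM in HrasG12V shEif2b5, 41.5, 34.96 and 32.9 in HrasG12V shScram, and 33.5, 41.7 and 38.6 in WT shScram. Insig1 footprints were 15.7, 21.4 and 18.02 CPM in HrasG12V shEif2b5, 27.6, 16.7 and 20.8 in HrasG12V shScram, and 20.1, 13.8 and 20.3 in WT shScram. Insig2 footprints were 20.7, 23.6 and 17.8 CPM in HrasG12V shEif2b5, 27.4, 26.5 and 23.8 in HrasG12V shScram, and 23.98, 18.8 and 19.3 in WT shScram. Insig2 was lower in every HrasG12V shEif2b5 library than in every HrasG12V shScram one, and Scap and Insig1 overlapped between all groups.

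**Figure D3:**
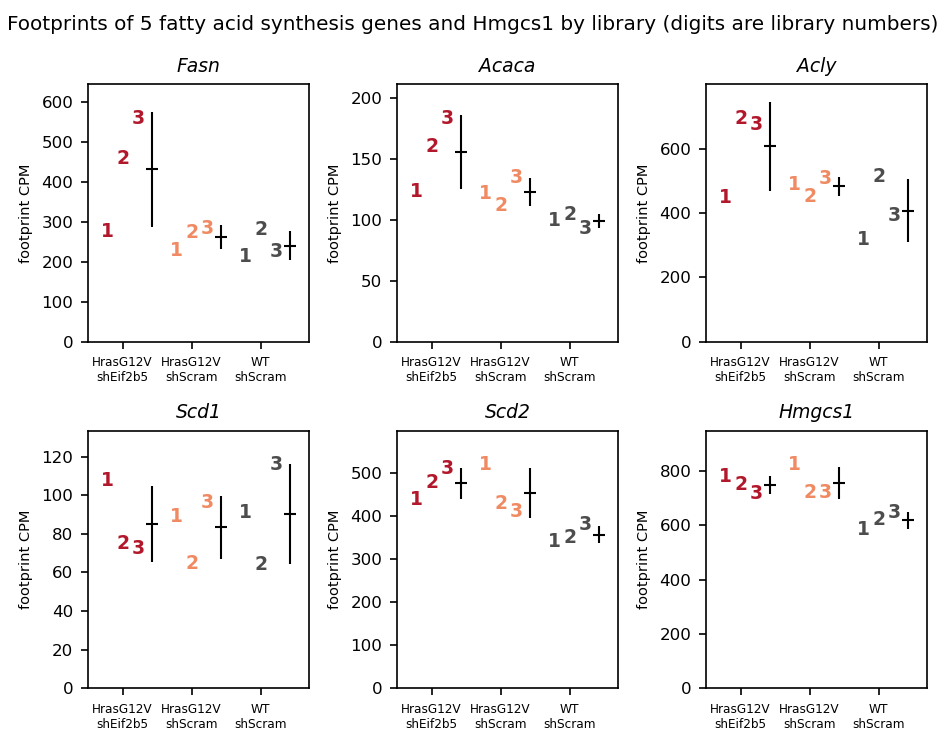
Footprint level (CPM, linear axes from 0) of 5 fatty acid synthesis genes and Hmgcs1 in each library, with digits giving the library number and bars the mean ± SD of 3 libraries. HrasG12V shEif2b5 libraries 2 and 3 are the highest of all for Fasn, Acaca and Acly, and library 1 is the lowest of its group for all 3.

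**Figure D4:**
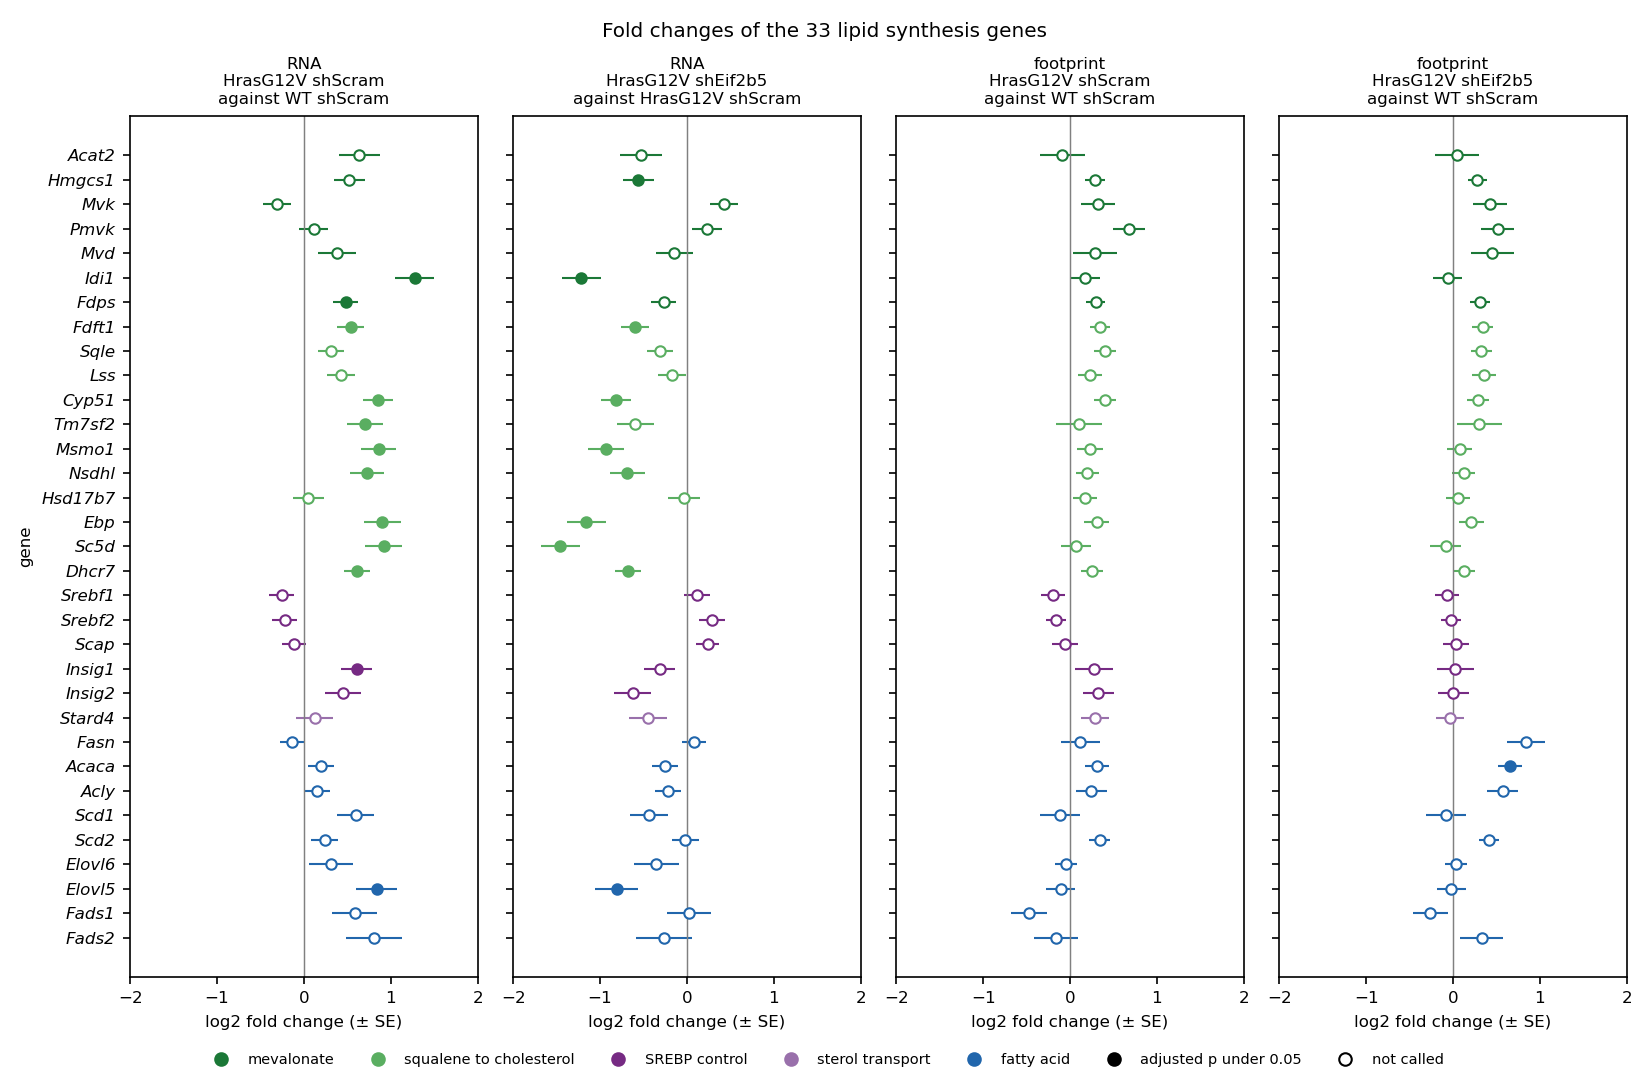
Log2 fold changes (x axis, ± SE) of the 33 genes (y axis) in 2 RNA and 2 footprint comparisons, with filled points called at an adjusted p under 0.05. In RNA 10 sterol genes are filled on the higher side in HrasG12V shScram against WT shScram and 9 on the lower side in HrasG12V shEif2b5 against HrasG12V shScram, and in footprints Acaca alone is filled.

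Whether footprints differed apart from RNA was tested as translation efficiency, the interaction of group and library kind in 1 model of all 18 libraries. In HrasG12V shScram against WT shScram edgeR called none of the 33 genes, where 1.17% of all 10793 genes were called (1.02% lower). An unadjusted p under 0.05 was found for 11 of the 33 and for 1705 of all genes, and DESeq2 called 1 member. The median was −0.29 for the sterol enzymes and −0.36 for the fatty acid genes. Without HrasG12V shScram RNA libraries 1 and 3 these medians were −0.13 for the sterol enzymes and 0.33 for the fatty acid genes, so the fatty acid direction turned. Idi1 had the lowest value of the 33, without a call (log2 −1.09, SE 0.30, adjusted p = 0.0737).

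In HrasG12V shEif2b5 against HrasG12V shScram 2 sterol enzymes rose in translation efficiency, Sc5d (log2 1.30, SE 0.29, adjusted p = 0.024) and Ebp (log2 1.06, SE 0.26, adjusted p = 0.0307), where 2.11% of all genes were called and 1.8% were called higher. Their footprints did not pass the test in that comparison (log2 −0.15 for Sc5d and −0.10 for Ebp), and their RNA fell. The median was 0.56 for the sterol enzymes, 0.54 for the fatty acid genes, 0.004 for SREBP control and 0.03 for all genes. Both calls were lost without HrasG12V shScram RNA libraries 1 and 3 (log2 1.10 for Sc5d and 0.72 for Ebp) and with GC and length offsets (0.96 for Sc5d and 0.97 for Ebp). Neither was called when 1 library was left out, where that library was HrasG12V shEif2b5 RNA library 1, HrasG12V shEif2b5 RNA library 3, HrasG12V shScram RNA library 1, HrasG12V shScram RNA library 3, HrasG12V shEif2b5 footprint library 3, HrasG12V shScram footprint library 2 or HrasG12V shScram footprint library 3. In HrasG12V shEif2b5 against WT shScram edgeR called no gene (0.0%), and 634 genes, 4 of them members, had an unadjusted p under 0.05. Of those members Fasn had the largest difference (log2 0.89, SE 0.25, adjusted p = 0.709), and DESeq2 called 0 of the 33. The median there was 0.19 for the sterol enzymes (16 of 18 positive) and 0.08 for the fatty acid genes (5 of 9 positive).

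The ratio of footprint to RNA level spread widely within the pathway. Group means of footprint CPM over RNA CPM were highest of the 33 for Idi1, at 7.18 in HrasG12V shEif2b5, 3.69 in HrasG12V shScram and 7.96 in WT shScram. They were lowest for Scap, at 0.144 in HrasG12V shEif2b5, 0.159 in HrasG12V shScram and 0.153 in WT shScram. The median over the sterol enzymes was 2.13 in HrasG12V shEif2b5, 1.74 in HrasG12V shScram and 1.81 in WT shScram. That over SREBP control was 0.452 in HrasG12V shEif2b5, 0.447 in HrasG12V shScram and 0.429 in WT shScram, and that over all genes was 0.998 in HrasG12V shEif2b5, 0.974 in HrasG12V shScram and 0.993 in WT shScram. Mvk had 0.309 in HrasG12V shEif2b5, 0.388 in HrasG12V shScram and 0.249 in WT shScram, the lowest ratio of the sterol enzymes. Srebf1, Srebf2 and Fasn were under 1 in all groups. The ratios set separately scaled library kinds side by side and are given without a test.

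**Figure D5:**
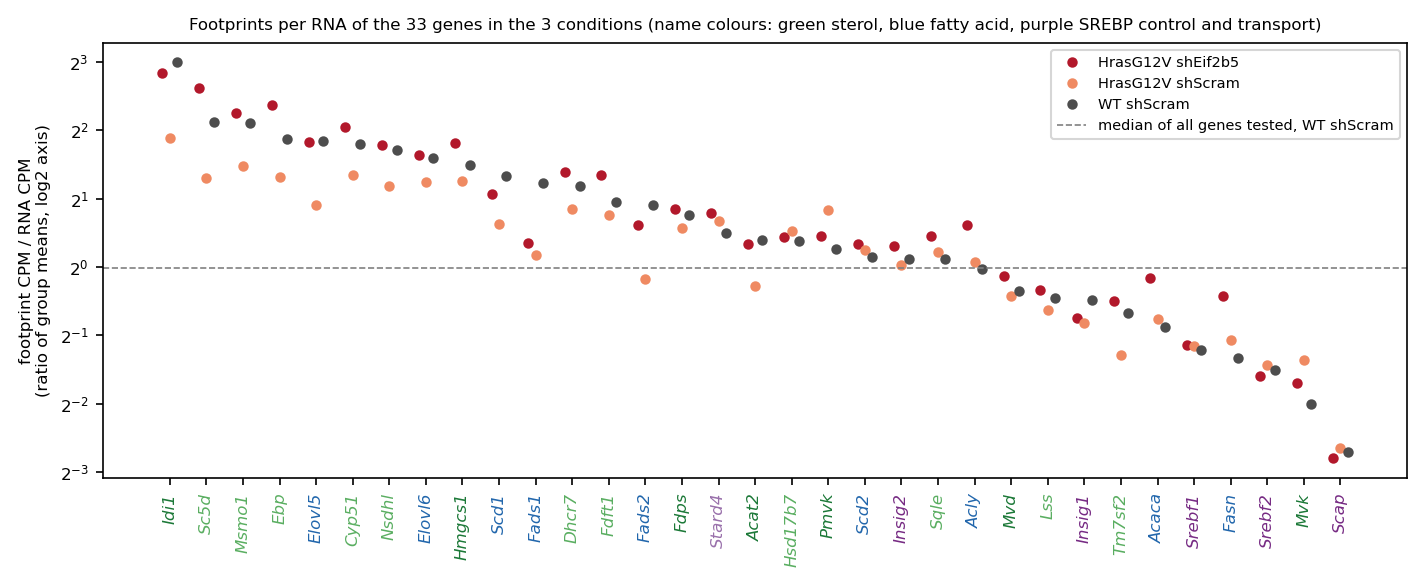
Ratio of mean footprint CPM to mean RNA CPM (log2 y axis) for the 33 genes in the 3 groups, with the dashed line at the WT shScram median of all genes tested (0.993). Idi1 is at the high end (7.96 in WT shScram) and Scap at the low end (0.153).

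Scaled to coding length, Hmgcs1 had the highest footprint level of the 33 genes in every group, at 480 CPM per kb in HrasG12V shEif2b5, 484 in HrasG12V shScram and 396 in WT shScram. Fdps had 445 CPM per kb in HrasG12V shEif2b5, 440 in HrasG12V shScram and 359 in WT shScram, and Scd2 had 444 CPM per kb in HrasG12V shEif2b5, 423 in HrasG12V shScram and 333 in WT shScram. The lowest footprint levels in WT shScram were those of Tm7sf2, Fads2 and Scap, at 6.31, 7.74 and 9.90 CPM per kb. In RNA Scd2 was the highest of the 33 in every group, at 351 CPM per kb in HrasG12V shEif2b5, 355 in HrasG12V shScram and 301 in WT shScram.

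Among listed neighbours of the pathway, none of 4 further sterol synthesis genes was called in RNA of HrasG12V shScram against WT shScram. Of 9 genes of sterol uptake, export and storage 1 rose, Tmem97 (log2 1.25, SE 0.25, adjusted p = 0.00796), whose product binds the cholesterol transporter Npc1. Of 18 further fatty acid genes 3 rose, Hsd17b12 (log2 0.88), Elovl7 (0.95) and Hacd2 (0.73), which act in the elongation of long-chain fatty acids. Of 7 isoprenoid genes 1 rose, Ggps1 (0.86), geranylgeranyl diphosphate synthase. None of the 5 tested genes of SREBP processing and LXR was called there. Over the 43 neighbours 5 thus rose, where 4.65% of all genes were called higher. With GC and length offsets 2 of them (Hsd17b12 and Tmem97) stayed called, Elovl7, Hacd2 and Ggps1 having log2 0.53, 0.56 and 0.40, and 0 stayed called without HrasG12V shScram RNA libraries 1 and 3.

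In RNA of HrasG12V shEif2b5 against HrasG12V shScram 1 of the 4 sterol genes fell (0610007P14Rik, log2 −0.67), as did 1 of the 9 traffic genes (Tmem97, −0.999), 1 of the 5 processing genes (Mbtps2, a protease that frees SREBP, −1.03) and 1 of the 7 isoprenoid genes (Ggps1, −1.32). The LXR gene Nr1h2 rose (0.46). Of the 18 further fatty acid genes 5 fell, among them Hsd17b12 (−0.97), Acsl4 (−0.76) and Elovl1 (−0.82), and 1 rose, Mid1ip1 (0.88), whose product promotes assembly of the Acaca enzyme. These are 11 calls, where 13.0% of all genes were called. With the offsets 4 of them stayed called (Elovl1, Ggps1, Hsd17b12, Tmem97), Mbtps2 and Nr1h2 having log2 −0.57 and 0.14 without a call, and 0 stayed called without HrasG12V shScram RNA libraries 1 and 3.

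Mid1ip1 was also the 1 listed neighbour called in footprints. It had 25.1, 31.7 and 24.2 CPM in HrasG12V shEif2b5, 30.3, 26.2 and 34.1 in HrasG12V shScram, and 13.4, 18.4 and 20.03 in WT shScram. All 6 HrasG12V libraries lay above WT shScram, and Mid1ip1 rose in HrasG12V shScram against WT shScram (log2 0.80, SE 0.19, adjusted p = 0.0305). That call held in 4 of 9 fits that left out 1 library and was lost without HrasG12V shScram library 1, HrasG12V shScram library 2, HrasG12V shScram library 3, WT shScram library 1 or WT shScram library 2 (highest adjusted p = 0.164). In translation efficiency Tmem97 fell in HrasG12V shScram against WT shScram (log2 −1.49, SE 0.30, adjusted p = 0.0213) and Ggps1 rose in HrasG12V shEif2b5 against HrasG12V shScram (log2 1.38, SE 0.31, adjusted p = 0.0232), and both calls were lost without HrasG12V shScram RNA libraries 1 and 3 (log2 −0.81 for Tmem97 and 0.81 for Ggps1). The Ggps1 call was also lost with the offsets (log2 0.95).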

How the data were processed

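Ribosome footprints and RNA were sequenced from epidermis in 3 groups of 3 libraries each. The deposited values are raw read counts per gene over coding sequences, and per the submitters' processing notes the tools were Bowtie, TopHat2 and HTSeq with build mm10; versions and strand settings are not given in the sources used here. From these counts, edgeR 4.0.16 and limma 3.58.1 (R 4.3.3) were used with filterByExpr (minimum count 10, minimum total 15), TMM scaling and robust quasi-likelihood tests across all genes, over 9 libraries of one kind or, for translation efficiency, all 18. Adjusted p is Benjamini-Hochberg over all genes tested. The procedure was tested on simulated data, in which every gene had the same spread and libraries differed only in depth and in the changes set. That run does not cover how RNA calls depended on GC content or on single libraries. An exact permutation test of 3 libraries against 3 cannot go below p = 0.1, so single genes were tested in the model only. Alternatives were DESeq2 1.42.0, limma voom, other scaling, filters, fewer samples, GC and length offsets, a replicate block and leaving out libraries.

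The 33 genes and all lists were chosen with earlier results of these data known. All 33 genes are named. Values per library are given for those called in at least 1 of 9 comparisons and for Srebf1, Srebf2, Scap, Insig1, Insig2, Fasn, Acaca, Scd1 and Scd2, and for other members that a sentence turns on, which were chosen after their values were seen. Other lists are given as counts with up to 3 called genes each. No pair of replicates was a copy, and 99.3% of gene symbols matched the GENCODE annotation.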

Additional observations from a re-analysis of the deposited data

How the results depend on the processing

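No called gene changed sign under any alternative run, while fatty acid medians did so in some of those given here. In RNA of HrasG12V shScram against WT shScram the 12 called genes became 5 with only the 2 groups in the fit, 7 with GC and length offsets (6 of the 12 and Lss), and 0 without HrasG12V shScram RNA libraries 1 and 3, where the medians were 0.35 (sterol) and 0.012 (fatty acid). In RNA of HrasG12V shEif2b5 against HrasG12V shScram the 10 became 5 with the offsets (4 of the 10 and Tm7sf2) and 0 without those libraries (medians −0.28 and 0.10). In footprints of HrasG12V shEif2b5 against WT shScram the 1 became 2 with DESeq2, 0 with the offsets and 0 with only the 2 groups, and in those of HrasG12V shScram against WT shScram the 0 became 1 with no filter and 1 with DESeq2. In translation efficiency DESeq2 called 1 in HrasG12V shScram against WT shScram and 4 in HrasG12V shEif2b5 against HrasG12V shScram, where the 2 became 0 with the offsets and 0 without those libraries (medians 0.33 and 0.22). The fatty acid median of HrasG12V shScram against WT shScram was then 0.33. The causes were not tested.

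Leaving out 1 library at a time, calls ranged, for HrasG12V shScram against WT shScram, HrasG12V shEif2b5 against HrasG12V shScram and HrasG12V shEif2b5 against WT shScram in this order, 0 to 1, 0 to 1 and 0 to 4 in footprints, 1 to 17, 3 to 14 and 0 to 0 in RNA, and 0 to 4, 0 to 9 and 0 to 1 in translation efficiency. Fatty acid medians ranged from −0.12 to 0.10, 0.13 to 0.28 and 0.13 to 0.40 in footprints. In RNA they ranged from 0.20 to 0.58 in HrasG12V shScram and −0.10 to 0.25 in HrasG12V shEif2b5, both against WT shScram, where sterol medians ranged from 0.42 to 0.67 and −0.015 to 0.12. In translation efficiency of HrasG12V shScram against WT shScram they ranged from −0.66 to −0.14.

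Same-numbered libraries did not deviate together throughout (correlations between groups of −0.39 to 0.38 in RNA and −0.18 to 0.34 in footprints). Footprint and RNA libraries of the same group and number had correlations of −0.004 to 0.345, over 0.1 in 7 of 9 pairs and in 3 of 3 in WT shScram. As not every pair passed 0.1, the numbers were not taken as pairs. With the replicate block 6 of the 33 genes were called in RNA of HrasG12V shScram against WT shScram, 9 in RNA of HrasG12V shEif2b5 against HrasG12V shScram, and 2 in footprints of HrasG12V shEif2b5 against WT shScram. With the block and the offsets these counts were 6, 3 and 0. In translation efficiency the block, formed by group and number, left the counts of members at 0, 2 (Sc5d and Ebp, also with the offsets) and 0, and the calls over all genes became 164 from 126 in HrasG12V shScram against WT shScram and 330 from 228 in HrasG12V shEif2b5 against HrasG12V shScram. Depth limits the low genes most: Fads2 had as few as 10 RNA reads in a library.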
